A study of Drosophila melanogaster with 3 samples.

Results

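Binding was described at 10 loci, those of the *Drosophila melanogaster* genes *EcR*, *usp*, *br*, *Eip74EF*, *Eip75B*, *Hr3*, *Hr4*, *Hr39*, *ftz-f1* and *Eip93F*, which form the core of the ecdysone cascade. They were listed by name for their place in the cascade, and all 10 were found among the 13945 coding genes annotated on the 6 large chromosome arms. A locus is the gene body with 5 kb on each side. Every binding summit of the tagged protein CG44002-eGFP inside a locus was taken, which gave 76 of the 7089 summits of the deposited reproducible peak list.

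The chromatin came from whole *Drosophila* prepupae, males and females pooled and of unknown age, the stage between the larva and the pupa. The animals carried a transgene that makes CG44002 with GFP at its C-terminal end, in a line the labels call CG34406-GFP, and the sonicated chromatin (fragments of 200 to 800 bp) was precipitated with an antibody against GFP. There is 1 group, with 3 biological replicates and no contrast, so values are described with their spread over replicates and no test was made. Whole animals were used, so strong binding in few cells and weak binding in many cannot be told apart.

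The steroid hormone ecdysone times moulting and metamorphosis by binding a dimer of 2 nuclear receptors, EcR and Ultraspiracle. The dimer switches on early genes, which encode transcription factors such as Broad, E74 and E75, and these in turn act on late genes and on further nuclear receptors. Late in larval life and again at the end of the prepupal stage a pulse of the hormone runs this cascade.

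The deposited list was thresholded by the irreproducible discovery rate (IDR), which measures how well peaks keep their order between replicates. Its peaks are ranked by the authors' signal value, so that rank 1 is the highest of 7089. A rank in a replicate is that of the highest-signal peak of that replicate's own list of 30000 peaks that holds the IDR summit. The top N of a replicate means its 7089 highest-signal peaks. Read depth is unknown from peak lists, and the number of replicates limits the precision.

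The sequences at the highest-signal summits are shown first. They are 100 bp of the plus strand of dm6, read from the RefSeq Release 6 sequence, at the 7 summits in these loci that ranked among the 708 highest of the list, with the longest uninterrupted run of A and T in capitals. The window of the second *Eip75B* summit was shifted by 100 bp so that it holds no untranslated exon. It therefore lies beside the summit, at position 17999773, and does not contain it. A and T made up 62% of this window, against 72% of the 100 bp around the summit. The other 6 windows are centred on the summit.
Hr4 rank 83, chrX:1951852-1951951: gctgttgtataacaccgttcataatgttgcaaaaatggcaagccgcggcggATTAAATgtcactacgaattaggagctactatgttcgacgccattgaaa
Eip75B rank 89, chr3L:18011865-18011964: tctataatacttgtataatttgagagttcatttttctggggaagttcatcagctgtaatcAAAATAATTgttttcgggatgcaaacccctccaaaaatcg
Hr4 rank 190, chrX:1947697-1947796: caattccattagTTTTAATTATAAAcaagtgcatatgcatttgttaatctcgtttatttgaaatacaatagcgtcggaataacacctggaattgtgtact
Eip75B rank 308, chr3L:17999823-17999922: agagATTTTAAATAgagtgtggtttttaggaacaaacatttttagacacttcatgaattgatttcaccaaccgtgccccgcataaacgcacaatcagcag
Hr4 rank 552, chrX:1948653-1948752: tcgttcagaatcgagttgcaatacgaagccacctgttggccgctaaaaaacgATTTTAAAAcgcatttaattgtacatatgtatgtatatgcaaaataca
Eip74EF rank 576, chr3L:17611409-17611508: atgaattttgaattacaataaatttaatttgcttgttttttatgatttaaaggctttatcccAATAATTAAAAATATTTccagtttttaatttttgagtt
Eip74EF rank 633, chr3L:17578503-17578602: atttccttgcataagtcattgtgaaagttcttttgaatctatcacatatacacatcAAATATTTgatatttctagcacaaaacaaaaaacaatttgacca

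The highest summits of 4 further loci are shown for contrast, since they are weaker and lie at a start (*br*, *Eip93F*), in an intron (*ftz-f1*) or beyond the gene (*Hr39*). The capitals again mark the longest run of A and T. The window was shifted by 30 bp for *ftz-f1* and by 20 bp for *Eip93F*. The windows at *EcR*, *Hr3* and *usp* are not printed.
ftz-f1 rank 994, chr3L:18756645-18756744: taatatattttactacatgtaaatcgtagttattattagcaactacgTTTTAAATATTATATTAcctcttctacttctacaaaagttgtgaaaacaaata
Eip93F rank 2415, chr3R:21972254-21972353: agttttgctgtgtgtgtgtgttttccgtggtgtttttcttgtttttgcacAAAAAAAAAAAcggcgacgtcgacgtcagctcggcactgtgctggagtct
br rank 2858, chrX:1612053-1612152: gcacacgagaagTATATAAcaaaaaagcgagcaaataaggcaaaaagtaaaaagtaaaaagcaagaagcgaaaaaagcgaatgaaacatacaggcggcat
Hr39 rank 4619, chr2L:21263912-21264011: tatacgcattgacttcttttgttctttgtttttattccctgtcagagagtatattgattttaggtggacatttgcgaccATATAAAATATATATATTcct

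All 10 loci held at least 1 IDR summit, and 9 of the 10 gene bodies did, *Hr39* being the exception. Of all coding genes 50.8% had a summit in the same window, and of the 1013 coding genes of 20 kb or more 73.8% did. In the top N of the replicates the 10 loci held 83, 70 and 84 summits, a mean of 79 ± 7.81 (SD, n = 3), and each locus held at least 1 in every replicate. The loci cover 686.8 kb, 0.513% of the 6 arms, and hold 1.07% of the IDR summits.

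Summits were denser in these loci than over the arms as a whole. The IDR list gave 1.11 summits per 10 kb in the 10 loci and 0.53 over the 6 arms, while the replicates' top N gave 1.21, 1.02 and 1.22 in the loci. The median coding locus of 20 kb or more had 0.432 summits per 10 kb and 2 summits. *Hr3* was the densest of the 10 with 2.08 per 10 kb, a density reached by 7.42% of coding genes and 4.34% of those of 20 kb or more. *Hr4* came next with 1.71, reached by 12.9% and 7.6%. The densities of *EcR*, *br*, *Eip74EF*, *Eip75B* and *ftz-f1* were reached by 10.6% to 35.1% of coding genes of 20 kb or more. *Hr39* with 0.308 and *Eip93F* with 0.398 lay below the median of the long genes, so the group was not uniformly dense.

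**Figure D1:**
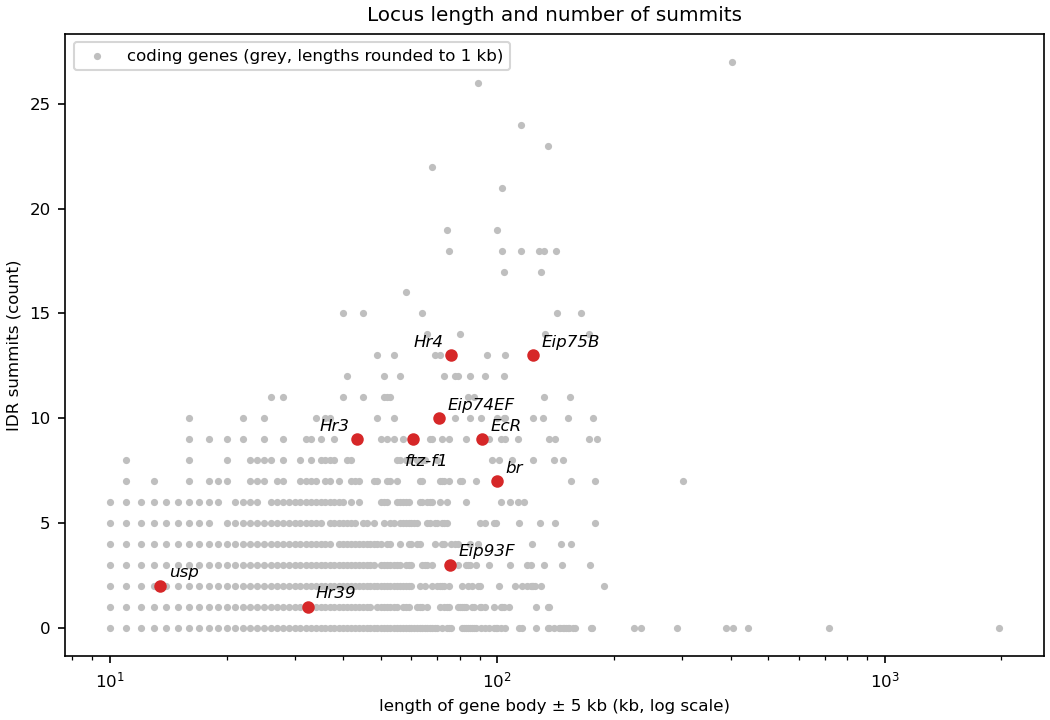
Number of IDR summits (vertical axis) against the length of the gene body with 5 kb each side (kb, log scale) for all coding genes in grey and the 10 named genes in red. *Hr4* and *Eip75B*, with 13 summits each, lie in the upper part of the cloud, with genes of similar length both above and below them (3.36% of all coding genes of 20 kb or more hold as many), and *Hr39* and *Eip93F* lie in its lower part.

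The summits were mostly intronic. Over 500 bp from every start of the gene, 51 of the 76 (67.1%) lay in an intron, against 43% of all IDR summits in introns and over 500 bp from any start. Introns make up 81.8% of the 10 gene bodies. The bodies without the flanks held 60 of the summits, including all 51 of these, a share near that of introns. The replicates' top N put 51, 48 and 51 summits of these loci in introns. For 28 of the 51 the intron was the first of at least 1 transcript, which genes with many transcripts meet more easily. The same share over all intronic IDR summits was not worked out. Coding exons, 6.99% of the gene bodies, held 0 of the 76, and over the whole list they held 0.141% of summits (10 of 7089). Of the others, 10 summits lay at a start, 1 in a 5′ UTR, 1 in a 3′ UTR, 4 upstream and 9 downstream of the gene.

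**Figure D2:**
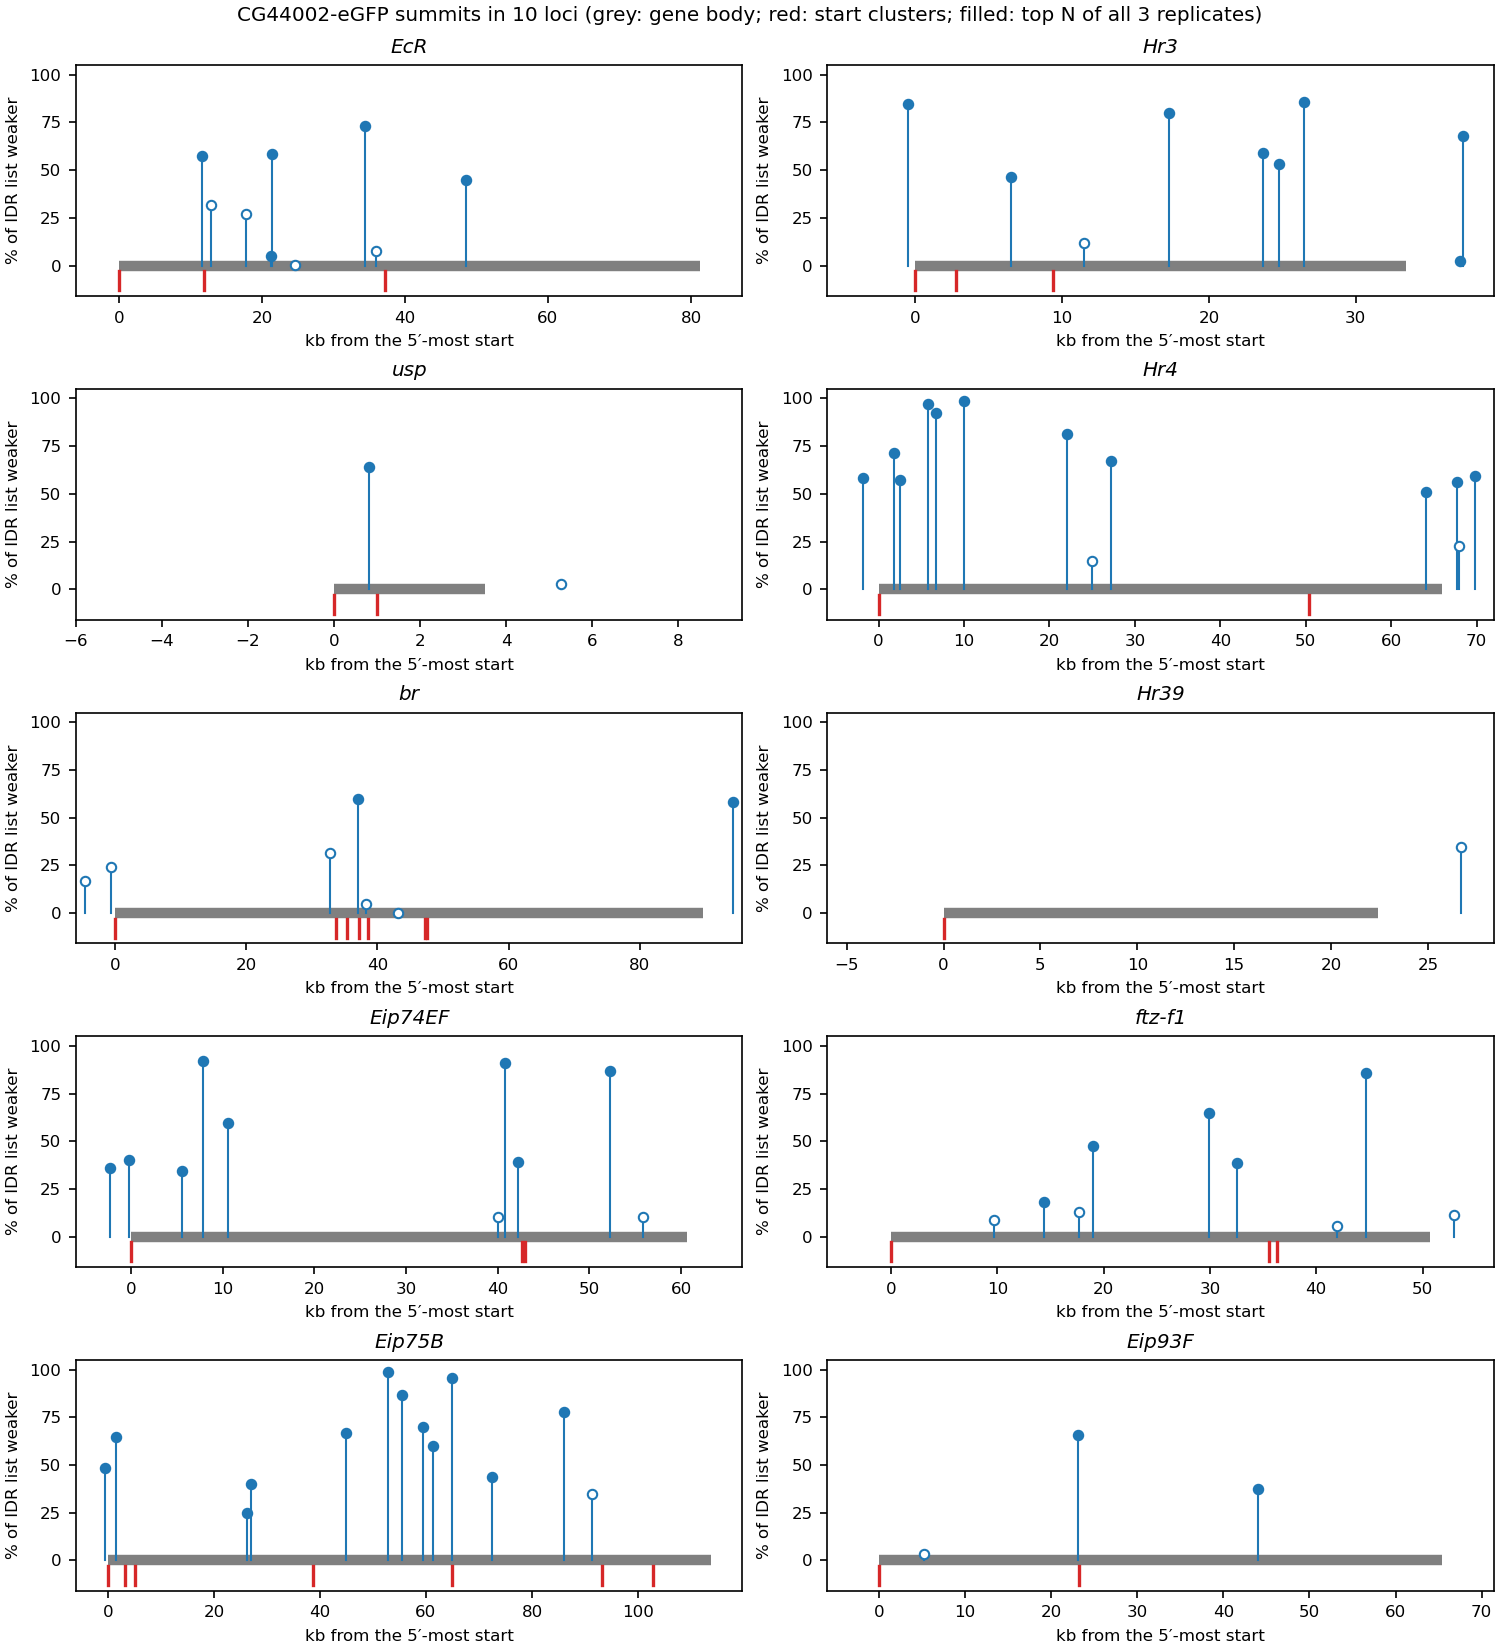
Each panel is 1 locus, drawn in kb from the 5′-most annotated start with transcription to the right. Grey bars are gene bodies, red ticks are start clusters, and each blue stem is an IDR summit whose height is the percentage of the IDR list with a lower signal (filled circles reached the top N in each replicate). The tallest stems of *Hr4*, *Eip75B* and *Eip74EF* stand inside introns or at the RC start of *Eip75B*, while *Hr39* has a single stem beyond its end.

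Starts were counted as clusters, joining annotated starts within 100 bp of one another, and a start was called bound with a summit within 500 bp. By this rule 7 of the 10 genes were bound at an own start (*EcR*, *usp*, *br*, *Eip74EF*, *Eip75B*, *Hr3* and *Eip93F*), against 19.5% of coding genes and 36.3% of the 3293 coding genes with 2 or more start clusters. The replicates' top N gave 7, 6 and 8 of the 10. *Hr3* was missing in replicate 2, and *ftz-f1* was added in replicate 3. A gene with several start clusters counts as bound if any of them is, so the clusters were also counted singly. Of the 33 start clusters 10 (30.3%) were bound, against 17.8% of the 18922 start clusters of coding genes, and the replicates gave 13, 8 and 14.

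Both 5′-most and internal starts were among the bound ones. The 5′-most cluster was bound in 3 of 10 genes (*Eip74EF*, *Eip75B* and *Hr3*), and 7 of the 23 other clusters were bound. The summit lay upstream of the start in 9 of the 10 cases, the exception being the RC start of *Eip75B*. The same shares over all coding genes were not worked out, so these counts cannot be called a trait of the 10 genes. Of the 23 unbound clusters 12 had no peak summit within 500 bp even in the pooled list of 30000, and the other 11 had one that ranked between 7813 and 25405 there, a range that the authors' file names describe as including background.

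Signal in these loci was typical of the list. The median rank of the 76 summits was 3561, against 3545 for the list as a whole, and in the replicates' own top N the medians were 4032, 3653 and 3727. Among the 708 highest peaks were 7 of the 76 (9.21%, against 9.99% of the list), all 7 in *Hr4*, *Eip75B* or *Eip74EF*. The median rank was 2947 for the 10 summits at an own start, 3312 for the 51 in introns and 4619 for the 13 in the flanks.

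Ranks repeated between replicates about as they did over the whole list. The top N of each replicate included the same 54 of the 76 summits (71.1%, against 67.4% of IDR peaks). A further 17 were shared by 2 replicates, 4 belonged to 1 replicate and 1 was in none. Across summits, Spearman's rho between replicate ranks was 0.80 for replicates 1 and 2 (n = 76), 0.80 for 1 and 3 (n = 75) and 0.74 for 2 and 3 (n = 75). Over all IDR summits it was 0.81, 0.79 and 0.76. These points share the libraries, and the list was itself drawn from these replicates. Within 1 summit the poorest replicate rank was a median of 1.66 times the best (1.62 over the list), and 1.36 times for the 7 highest (1.53 over the 708 highest of the list).

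**Figure D3:**
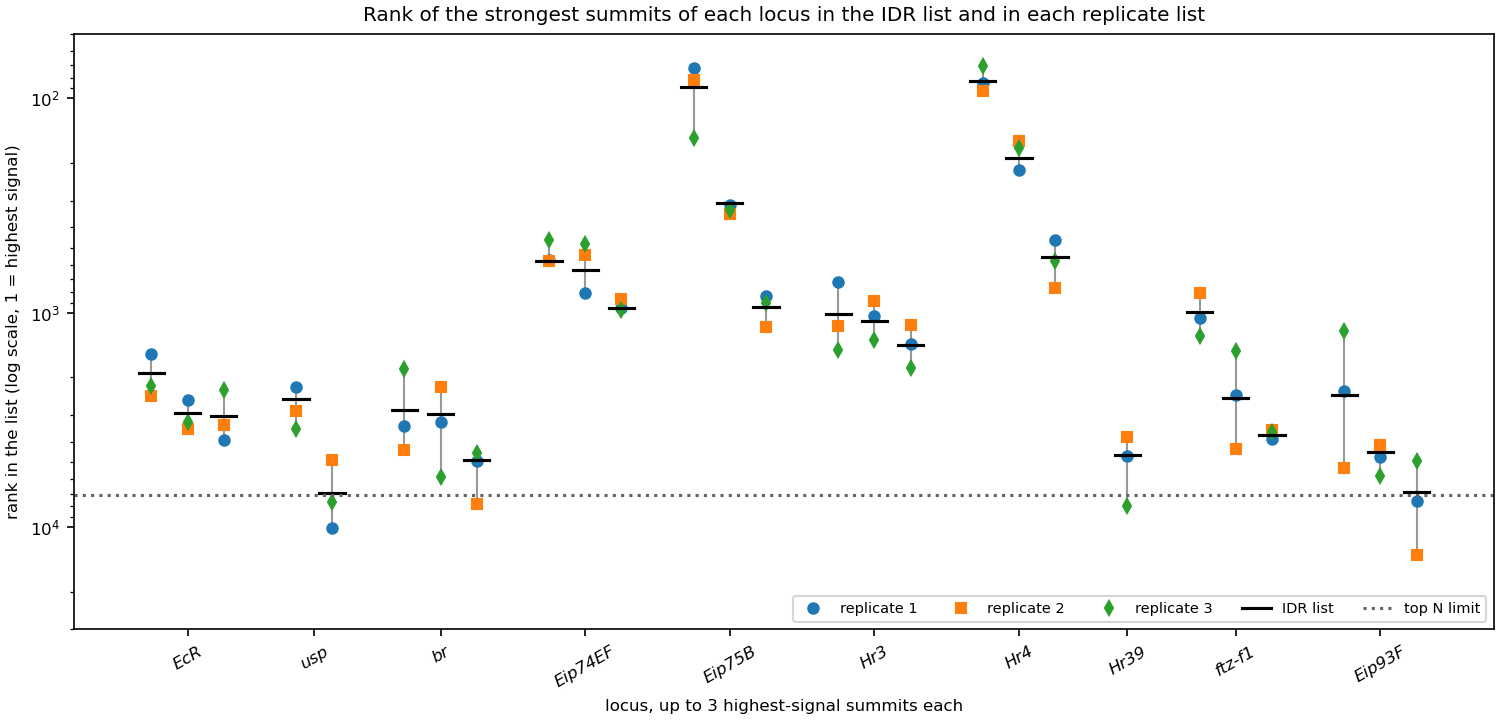
Ranks (log scale, 1 at the top) of up to 3 highest-signal summits of each locus in replicates 1, 2 and 3 (coloured points), with the IDR rank as a black line and the top N limit of 7089 as a dotted line. The leading summits of *Hr4* (rank 83) and *Eip75B* (rank 89) stay within 71 to 92 and 72 to 153, whereas those of *br* and *Eip93F* spread more widely.

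The receptor genes came first in the cascade but not in signal. *EcR*, which encodes the ecdysone receptor itself (chr2R:6087873-6169087, minus strand), held 9 summits, and the replicates' top N held 9, 7 and 8. Of these, 7 lay in 1 intron of 56.8 kb, the third of transcript RA and the fourth of RD and RE. The highest, at position 6134682, ranked 1916 in the IDR list and 1552, 2450 and 2190 in replicates 1, 2 and 3, and it lay 2760 bp upstream of the start shared by RB, RC and RG. The next, at 6147650, ranked 2929 (2549, 3497 and 3235 in the replicates). It has a neighbour 213 bp away at rank 6726, and 1 replicate peak covered both in replicates 2 and 3, so this pair may not be separate.

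Of the 3 *EcR* start clusters only that of RD and RE was bound. Its summit at 6157521, 392 bp upstream, ranked 3036, and 3924, 3357 and 2301 in the replicates, so it stayed inside the top N of each. The start of RA had no peak in the pooled list within 500 bp, and that of RB, RC and RG had one at rank 13498. The last 32.7 kb of the gene body, at its 3′ end, held no summit.

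*usp* encodes Ultraspiracle, the RXR-type partner of EcR (chrX:2038798-2042311, minus strand), and is the shortest of the 10 with a body of 3.5 kb. Its single summit in the body, at 2041496 and 184 bp upstream of the RA start, ranked 2537 and 2228, 2890 and 3494 in the replicates. The RB start had a pooled peak at rank 8885, outside the IDR list. A weaker flank summit at rank 6908 lay 421 bp from the start of *Actn*, which encodes alpha-actinin, and was in the top N of 1 replicate only.

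Among the early genes the zinc-finger factor *br* (chrX:1575132-1664869, plus strand) had 7 summits spread thinly over a body of 89.7 kb. Of its 7 start clusters 2 were bound. The summit at 1612103, 205 bp upstream of the cluster that serves 9 of the 16 transcripts, ranked 2858 and 3368, 4374 and 1830 in the replicates. The summit at 1613440, 217 bp upstream of RI, ranked 6754 and 5711, 10149 and 6490, so it left the top N in replicate 2. The last 46.7 kb of the gene body held none, and the flank summit at rank 2984 lay 99 bp from the start of *CG3740*.

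Replicate 2 stood apart at *br*. At 6 of the 7 summits the poorest rank was that of replicate 2, and its median rank there was 10149, against 4931 in replicate 1 and 4488 in replicate 3. Over all IDR summits with a peak in every list replicate 2 had the poorest rank at 31.2%, and at 40% of those in the 10 loci. It was also the poorest at 5 of 8 such summits at *EcR* and 2 of 3 at *Eip93F*, but at 1 of 9 at *Hr3*. At none of the other 9 loci did the median rank of replicate 2 exceed 5326. The top N counts at *br* were 7, 2 and 8, the widest spread of the 10 loci. Only 2 of the 7 *br* summits reached the top N in each replicate, and the reason was not tested.

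**Figure D4:**
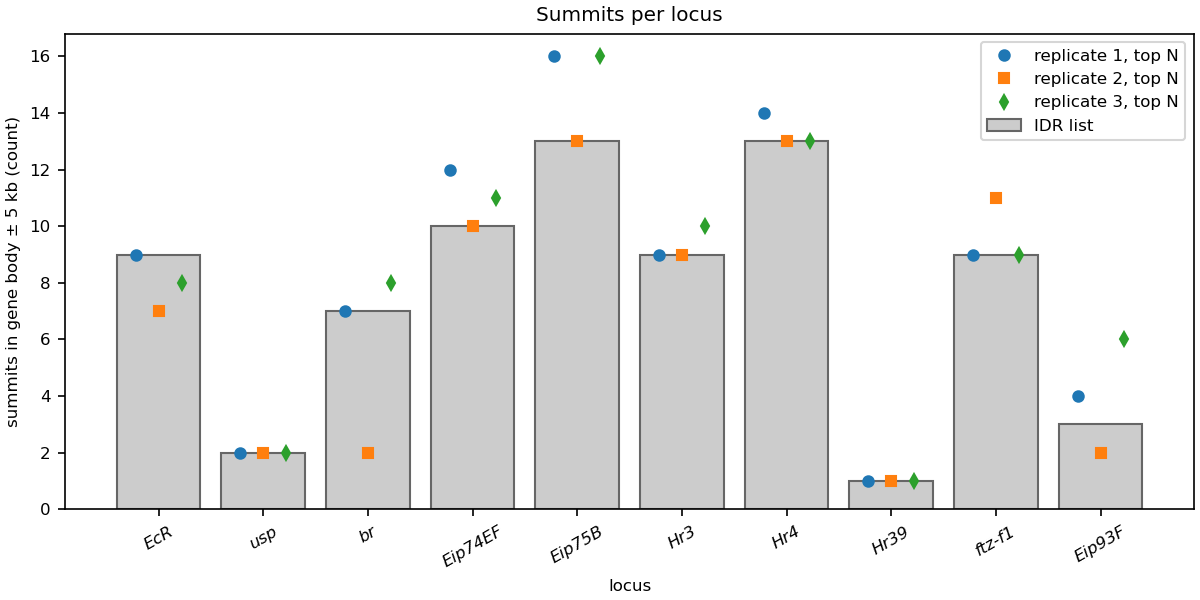
Summits per locus in the IDR list (grey bars) and in the top N of replicates 1, 2 and 3 (coloured points). The points lie close to the bars at most loci, and *br* (7, 2 and 8) and *Eip93F* (4, 2 and 6) spread most relative to their count.

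*Eip74EF* encodes the Ets-domain factors E74A and E74B from separate starts (chr3L:17558672-17619325, minus strand). It held 10 summits, and 12, 10 and 11 in the replicates' top N. The highest lay in the first intron of the E74A transcript RA, at 17611459 and 7866 bp downstream of its start, and ranked 576 and 566, 574 and 456. The second, at 17578553, ranked 633 and 813, 539 and 476, and lay 1927 bp upstream of the RB start, that of E74B. The summit at 17567042 lay in an intron of all 5 transcripts and ranked 951 and 954, 860 and 976. The 3 leading summits thus kept to the upper part of every list.

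Both E74 starts were bound, though at lower signal than these introns. The summit 187 bp upstream of the start of RA, RC and RE ranked 4249 and 4182, 5719 and 4997, and the one 450 bp upstream of RB ranked 4323 and 5507, 4053 and 3556. The neighbouring start of RD had no pooled peak. A summit in the upstream flank at rank 4530 lay 2 bp from the start of *Vps60*, so it counts for that gene as much as for *Eip74EF*.

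*Eip75B* encodes the haem-binding nuclear receptor E75, whose isoforms come from separate starts, named here by transcript (chr3L:17950953-18064696, minus strand). With 13 summits (16, 13 and 16 in the replicates) it shared the largest count, and 12 of the 13 lay in the top N of every replicate. Only 2 of its 7 start clusters were bound, and they differed widely in signal. The summit 48 bp inside the RC start, at 17999773, ranked 308 and 314, 346 and 331. The summit 486 bp upstream of the 5′-most start, that of RF, ranked 3659 and 4032, 3368 and 3933, but the replicate summits of this peak lay within 500 bp of the start in replicate 1 only. At the RA start the best pooled peak ranked 7813, just outside the IDR list, and at the RB start there was none.

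The highest *Eip75B* summit lay away from every start, at 18011915 and 12094 bp upstream of that of RC. It ranked 89 in the IDR list and 72, 82 and 153 in the replicates. The next intronic summit, at 18009181, ranked 940 and 836, 1166 and 902. Both belong to a row of 8 summits in 1 intron of 65.2 kb, the first of RB and the third of RE and RF, which also holds the RC start. The summits at 18038376 and 18037668 in the same intron lay 96 and 612 bp from the start of a noncoding RNA, *lncRNA:CR45922*.

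*Eip93F* encodes E93, a helix-turn-helix factor that specifies adult development (chr3R:21949114-22014539, plus strand). It held 3 summits over a body of 65.4 kb, and 44.1% of coding genes of 20 kb or more held as many. The highest, at 21972284 and 95 bp upstream of the start of RA and RC, ranked 2415. Its replicate ranks of 2318, 5326 and 1220 differed more than at most leading summits. The others, at ranks 4452 and 6861, were intronic, and the start of RB had its best pooled peak at rank 15527.

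The remaining receptors included both the highest and the weakest locus. *Hr4* (chrX:1941940-2007956, plus strand), an orphan nuclear receptor of the cascade, held 13 summits, with 14, 13 and 13 in the replicates, and 11 reached the top N in each replicate. Its 3 leading summits, at 1951902, 1947747 and 1948703, lay within 1 intron of 10.4 kb, the first or second of the 7 transcripts that begin at the 5′-most start. The first ranked 83 and 85, 92 and 71. The second ranked 190 and 216, 159 and 171. The third ranked 552 and 459, 769 and 576.

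Each of the 3 kept its place among the strongest peaks in every replicate, and 2 weaker summits at ranks 2030 and 3032 lay in the same intron. Neither *Hr4* start was bound. The 5′-most one had its best pooled peak at rank 15628, and the internal start of RE and RF had none. The 4 summits in the flanks lay 129 bp from *CG3857*, 287 bp from *PIG-K*, 106 bp from *lncRNA:CR45478* and 565 bp from *east*. A stretch of 36.9 kb in the 3′ part of the body was free of summits.

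*Hr3* encodes a ROR-type receptor that acts on *ftz-f1* in the prepupa (chr2R:10203995-10237348, minus strand). It held 9 summits (9, 9 and 10 in the replicates). The highest lay in the second intron of RA, RF and RH at 10210856 and ranked 1012 and 720, 1154 and 1497, at 491 bp from the start of *lncRNA:CR46322*. The summit 494 bp upstream of the RD start, at 10237842, ranked 1096 and 1042, 887 and 1344, but it lay only 146 bp from the start of *Hdc*, the histidine decarboxylase gene. When each summit was counted for the nearest start only, *Hr3* was no longer bound. The summit at 10220086 ranked 1415 and 1404, 1142 and 1810, in the same intron as the highest. Both summits also lay within the longer first introns of RC, RD and RI.

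*ftz-f1* encodes a receptor of the SF-1 and LRH-1 family that is expressed in the prepupa between hormone pulses (chr3L:18750607-18801309, minus strand). None of its 3 starts was bound, although 8 summits lay in its introns. The highest, at 18756665, ranked 994 and 1059, 807 and 1284, in the intron common to all 4 transcripts. The second intron of RB, 33.7 kb long, held 6 more. They were led by 18771429 at rank 2499 (2427, 4344 and 1513) and 18782338 at rank 3709 (3890, 3544 and 3622). The start of RC and RD had a pooled peak at rank 7879 and replicate peaks at ranks 8794, 16440 and 4899, so only replicate 3 had one in its top N there. The flank summit at rank 6273 lay 14 bp from the start of *Nufip*.

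*Hr39*, a second receptor of the same family (chr2L:21237250-21259675, plus strand), had no summit in its body of 22.4 kb and no pooled peak at its start. Its single summit lay in the downstream flank, at 21263962, 7 bp from the start of an annotated noncoding RNA. It ranked 4619 and 4676, 3818 and 8003 in the replicates. Of coding genes of 20 kb or more, 73.8% held at least 1 summit by the same count, so this locus does not stand out.

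Other genes share these windows. Of the 76 summits 34 were nearer to a start of another gene than to one of the named gene, and 13 of them lay within 500 bp of it. *Vps60*, *lncRNA:CR45922*, *CG3857*, *PIG-K*, *lncRNA:CR45478*, *east* and *Nufip* were named after their values were seen. Within 500 bp of any annotated start lay 28.9% of the 76, against 36.2% of all IDR summits. Of 7 pairs of summits within 1 kb of each other, 3 (in *EcR*, *Hr3* and *Hr4*, 200 to 213 bp apart) were covered by 1 peak in at least 1 replicate.

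Pooled peaks in these loci continued below the deposited threshold, as they did over the whole list. The pooled list held 355 peaks there, 279 of them outside the IDR list, and the first of these ranked 7364 and 7485. As a whole the pooled list held 30000 peaks and the IDR list 7089, so the share outside was similar. The authors' file names describe the pooled list as including background. The count of 76 is therefore that of the authors' threshold, and how many of the other peaks are enrichment is unknown from the lists.

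Base composition around the summits was like that of the whole list. In the 100 bp around a summit A and T made up a median of 67.5%, from 41% to 82%, against 69% for all IDR summits, and 65%, 69% and 64.5% in the replicates' top N of these loci. The longest uninterrupted run of A and T had a median of 9 bp, against 10 bp over the list. The highest of the 76 was 23 bp. Among the printed windows the run was 18 bp at *Hr39*, 17 bp at the leading *Eip74EF* summit and at *ftz-f1*, and 7 bp at *br* and at the leading *Hr4* summit.

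**Figure D5:**
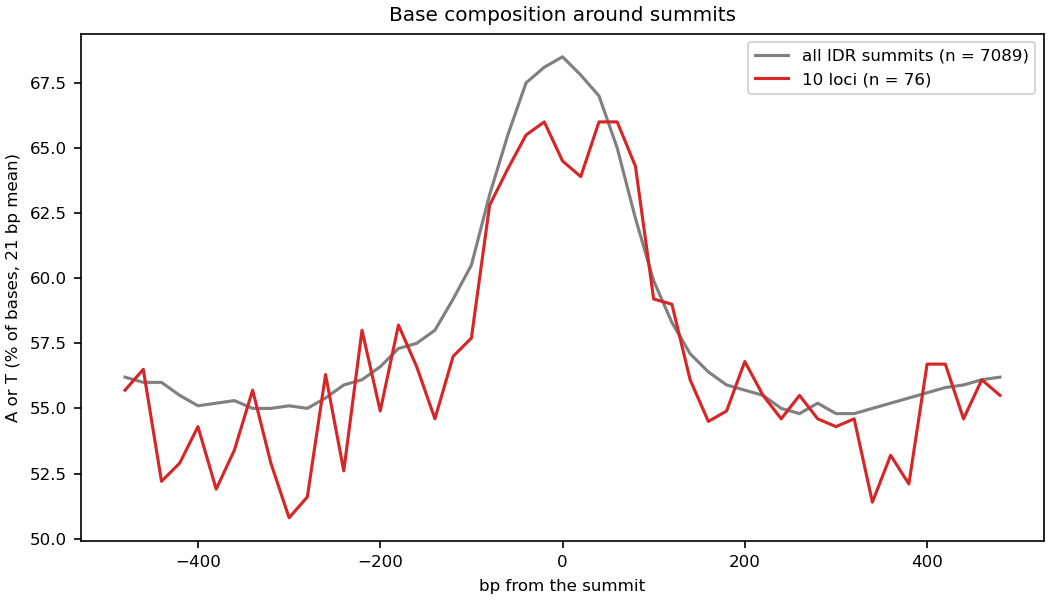
Share of A or T bases (%, mean over 21 bp) against distance from the summit in bp, for the 76 summits of the 10 loci (red) and all 7089 IDR summits (grey). Both curves peak within about 100 bp of the summit, and the red curve is rougher with fewer summits.

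A search for 6 strings covered 200 bp centred on each summit and read either strand. AGGTCA, the core that nuclear receptors share, was found at 4 of 76 summits (5.26%, 95% exact Clopper-Pearson interval 1.45% to 12.9%), against 3.7% of all IDR summits. The 4 were ranks 633 and 951 at *Eip74EF*, rank 3032 at *Hr4* and rank 6682 at *ftz-f1*. The extended form CAAGGTCA, which contains AGGTCA, was at 0 of 76, which allows a share of up to 3.95% (3 counts of 76) or, by the same exact interval, 4.74%, against 0.296% of the list. These intervals cover counting error only, and a match is a run of letters, not a shown site.

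The receptor core was thus about as frequent here as elsewhere in the list. GAGAG, the core bound by the GAGA factor, was at 22 summits (28.9%, against 21.9%). TATAAA was at 20 (26.3%, against 38.8%). A run of 8 A was at 19 (25%, against 19.5%). The shares over the list lay inside the 95% intervals of the first and last (19.1% to 40.5% and 15.8% to 36.3%). For TATAAA the share over the list lay just above the interval (16.9% to 37.7%). All these intervals count summits of the same locus as independent, so they may be too narrow, and no test was made.

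The string GGTCANTGACC, an inverted repeat of the core with 1 base between, is the form known for the EcR and Ultraspiracle dimer. It was at 1 of 76 summits (1.32%, interval 0.0333% to 7.11%), against 0.0141% of all IDR summits, and the *Hr4* summit of rank 3032 is that 1 summit of the whole list. The match lies 84 bp from the summit, outside the peak of 213 bp, and is the only one in the 10 loci. On the 6 arms there were 69 matches, of which 0 had their centre in an IDR peak and 5 in a peak of the pooled list. The share of the arms that the peaks cover was not worked out, so these counts cannot be called few or many. This single case was picked out after its values were seen. The 200 bp of the plus strand around the summit follow, with the inverted repeat in capitals.
Hr4 rank 3032, chrX:1944311-1944510: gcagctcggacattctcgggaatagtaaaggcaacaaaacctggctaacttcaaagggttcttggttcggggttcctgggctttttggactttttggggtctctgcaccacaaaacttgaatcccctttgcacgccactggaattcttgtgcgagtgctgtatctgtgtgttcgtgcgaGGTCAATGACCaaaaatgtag

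Related genes gave a scale for these values. Of 14 other nuclear receptor genes 11 had a summit in the locus and 5 (35.7%) at an own start, at 0.631 summits per 10 kb. Of the 5 bound at a start, the 4 highest start summits were those of *Hnf4* (rank 370), *Hr78* (805), *Hr96* (857) and *ERR* (1249). At *Hr96* and *ERR* the nearest start was that of a neighbour, *EMC6* and *Atg18a*. *Eip78C*, another ecdysone-induced receptor gene, named after its values were seen, had no summit at an own start. Its locus held a summit of rank 43, above every summit of the 10 named genes. The distance of that summit to starts of other genes was not worked out.

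Of 22 other ecdysone-response genes 17 had a summit in the locus and 8 (36.4%) at an own start, at 0.928 per 10 kb. The highest start summits were those of the ABC transporter gene *E23* (rank 84), *Sox14* (87), *Ldh* for lactate dehydrogenase (160) and *Eip63F-1* (657). These start summits thus included ones that outranked every start summit of the 10 named genes, where the best was rank 308. Of 11 receptor cofactor genes 10 had a summit in the locus and 6 (54.5%) at an own start, at 1.13 per 10 kb. Their highest start summits were those of *Hsp83* (512), *tai* (1808), *Rack1* (1884) and *alien* (3077), and at *tai* and *alien* the nearest start was that of *CG9586* and *CG18661*. The median body was 63 kb for the 10 named genes and 8.48, 9.26 and 6.81 kb for these lists, so counts per gene are not comparable between them, and the differences were not tested.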

How the data were processed

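ChIP-seq peak lists of CG44002-eGFP in 3 biological replicates of prepupae were used. The authors deposited narrowPeak lists on dm6, 1 per replicate, 1 pooled and 1 thresholded by IDR, each peak with a signal value whose scale is not stated. Lists on dm3 were not used here. Per the deposited inventories each list was made against a control, which was not analysed here. The sources used here do not name an aligner, a peak caller or an IDR cutoff. Ranking the pooled list by signal and keeping 7089 peaks gave exactly the IDR list. It is 1 pooled list, so no spread over replicates can be given for the list itself. Columns of other samples numbered 0.

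Summits were ranked by signal and placed on Ensembl release 115 genes (BDGP6.54), 1-based, with Python 3.11.15, NumPy 2.4.6 and SciPy 1.17.1. Sequence was RefSeq Release 6. List symbols absent from the annotation were matched through RefSeq synonyms, and 1 (*DOR*) was not matched. Placement, ranking and string search were tested on simulated data. Named were every summit at an own start, the 3 highest-signal summits per locus with the gene of the nearest start, and the 4 highest-signal start-bound genes per list. Printed sequences were those of the highest summit per locus and of the 708 highest peaks. Members and lists were chosen with earlier results of these data known. The labels call the samples biological replicates and say no more of their source, so an SD is the spread between these 3 samples.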

Additional observations from a re-analysis of the deposited data

How the results depend on the processing

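Of 84 recomputed values at least 12 were fixed by construction, since the 7089 highest peaks of the pooled list are the IDR list and a summit in the top N of every replicate passes when 1 is left out. Some of the other 72 were fixed too. A 10 kb flank could not change the 10 loci with a summit, and no choice of flank could change the 51 intronic summits. Of these 72, 54 stayed close to the reported value, the fixed ones included, and 18 did not. Close means within 1.5 times for a count and within 1 replicate SD for a median or a density. Keeping the upper part of the IDR list above the median signal left 38 summits, 6 bound start clusters, 26 intronic summits, a median rank of 2312 and 0.5533 summits per 10 kb. Counting only 200 bp around a start left 4 genes and 4 start clusters bound. Keeping the peaks that reached the top N in each replicate gave a median rank of 2857 and 0.7863 per 10 kb, and gene bodies without flank gave a median rank of 3174. Median A or T was 65% in 200 bp windows, and AGGTCA was left at 1 summit in 100 bp windows. Leaving out 1 replicate meant keeping the IDR summits in the top N of both others, and the IDR list itself was not remade. This filter gave 9 to 10 loci with a summit, 55 to 63 summits, 7 genes and 9 to 10 start clusters bound. It left 38 to 42 intronic summits, 0.8008 to 0.9173 per 10 kb and a median rank of 2858 to 2962. Median A or T was then 68% to 69%, and AGGTCA was at 3 to 4 summits. The filters themselves drop low-signal peaks. No paired analysis was possible because the design has 1 group. Depth is unknown, and peaks under the threshold are not counted as absent.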
